A study of Mus musculus with 4 samples.

Results

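Hypoxia targets and glycolytic genes were followed in B16-F10 cells, a melanoma line from mouse, as a list of 39 genes looked up by symbol in the deposited count table of 53465 genes. All 39 were found, and 37 passed the filter on low counts that left 12320 genes for testing. The cells carried a fluorescent label, had been infused into zebrafish, were recovered, and were grown in IMDM with 10% FBS before total RNA was purified and polyA libraries were made. Each group held 2 libraries: cells that did not take part in extravasation, which the design text names as the control (control 1 and control 2), and cells that had left the vessels (extravasated 1 and extravasated 2). Strain, medium and handling were labelled alike in the 4 samples, and the growth text describes extravasated cells for the controls too, so the grouping was taken from the extravasation field. A number in the titles also differs between the pairs, and its effect cannot be told apart from extravasation. The labels do not call the libraries of a pair separate cultures, so p-values here rest on a spread that may be technical. The number of cells or fish behind a library was not given in the sources used here.

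In oxygen, prolyl hydroxylases mark the alpha subunits of the hypoxia-inducible factor (HIF) for destruction by the VHL ubiquitin ligase. When oxygen falls, the subunits persist, pair with Arnt, and raise transcription of glucose transporters, glycolytic enzymes, lactate exporters and some of their own hydroxylases. Much of this control acts on HIF protein, which read counts do not measure, and melanoma cells often ferment glucose to lactate also where oxygen is present.

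Library totals ran from 11705904 to 19674733 counts. Read counts were scaled to CPM, counts per a common library total, with TMM factors and tested with the edgeR quasi-likelihood test, and a gene is called where its Benjamini-Hochberg adjusted p over all 12320 genes is under 0.05. All 10 melanocyte markers looked up were detected, with summed levels from 24410 CPM in control 2 to 32130 CPM in extravasated 1. Summed levels were at most 11.3 CPM for 6 fibroblast genes, 5.38 CPM for 6 leukocyte genes and 0.984 CPM for 5 endothelial genes, and all 5 erythroid genes were at 0. Over 11120 nuclear coding genes, log2 fold changes followed the GC content of the transcript with a Spearman rho of 0.74, so GC-poor transcripts read low and GC-rich ones high in the extravasated libraries. Each fold change was therefore also computed with an offset for transcript GC content and length, which brought that rho to 0.03. Whether the GC trend arose in the cells or in the libraries was not tested.

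The members did not move as a block. Of the 37 tested, 8 were called higher in the extravasated libraries, against 19.1% of all tested genes, and 8 were called lower, against 25.9%, so both counts (21.6% each) were near the background. Groups did not overlap for 28 members (75.7%), against 76.3% of all genes. These are bulk libraries, in which fewer cells of a kind and less RNA per cell cannot be told apart. The median log2 fold change was -0.09 over the members and -0.02 over all genes. By role, 1 of the 20 members that are not glycolytic enzymes was called higher (5.0%) and 6 lower (30%), with a median of -0.76, and of the 17 enzymes 7 were called higher (41.2%) and 2 lower (11.8%), with a median of 0.31. With the offset 2 members were called higher, against 7.88% of all genes, and 3 lower, against 5.72%. These were 2 higher and 2 lower of the 20 (10% each), with a median of -0.67, and 1 lower of the 17 enzymes (5.88%), with a median of 0.045. Ddit4 and Pfkl kept their calls, and the other 14 calls ended, those of the 7 risen enzymes among them. With GC content alone in the offset 6 members were called lower, and with the longest transcript of each gene also 6. The share of all genes called lower in these fits is not given here, so these counts have no background beside them.

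**Figure D1:**
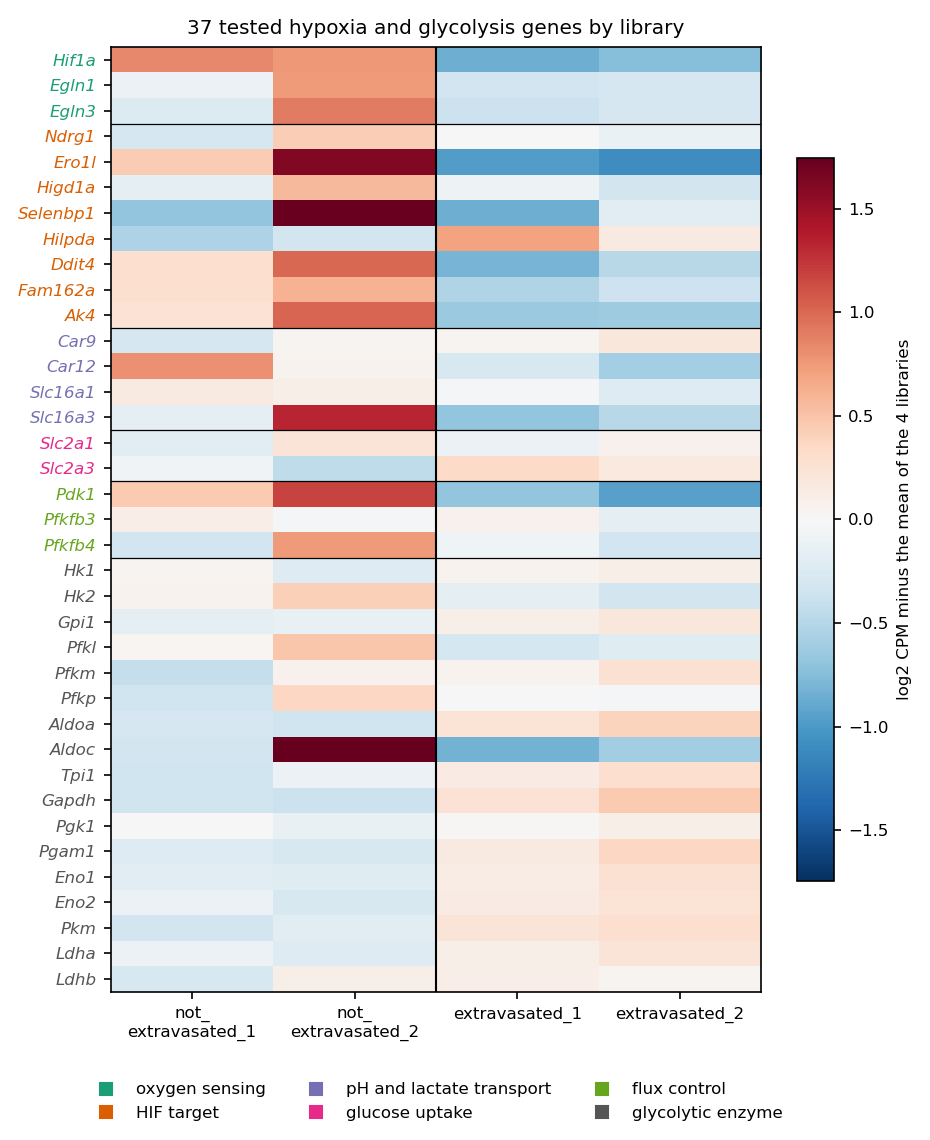
Heatmap of the 37 tested members (rows, grouped and coloured by role) in the 4 libraries (columns); colour is log2 CPM minus the gene's mean over the libraries. Control 2 (not_extravasated_2) holds the deepest red, for Selenbp1, Aldoc and Ero1l, and is the highest library for 17 of 37 members, while the glycolytic enzymes with high counts are faintly red in both extravasated libraries.

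The controls differed from each other in these genes. Control 2 was more than 2-fold above control 1 for 6 members (16.2%), against 1.44% of all tested genes, and none was that far below, against 4.5% of all genes. No member differed more than 2-fold between the extravasated libraries, against 2.42% of all genes. Control 2 was the highest of the 4 libraries for 17 members (45.9%), against 20.9% of all genes, and 13 of these were among the 20 that are not enzymes. The median difference of control 2 from control 1 was 0.34 on the log2 CPM scale over the members and -0.07 over all genes. It was 0.71 for the members that are not enzymes and 0.05 for the enzymes, and with the offset these were 0.69 and 0.04. Control 2 also held the lowest sum of the 10 melanocyte markers, 24410 CPM against 29870 CPM in control 1, and the part of that shift in these gaps was not tested. With 1 library on each side these are differences between 2 libraries, with no replicate check.

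**Figure D2:**
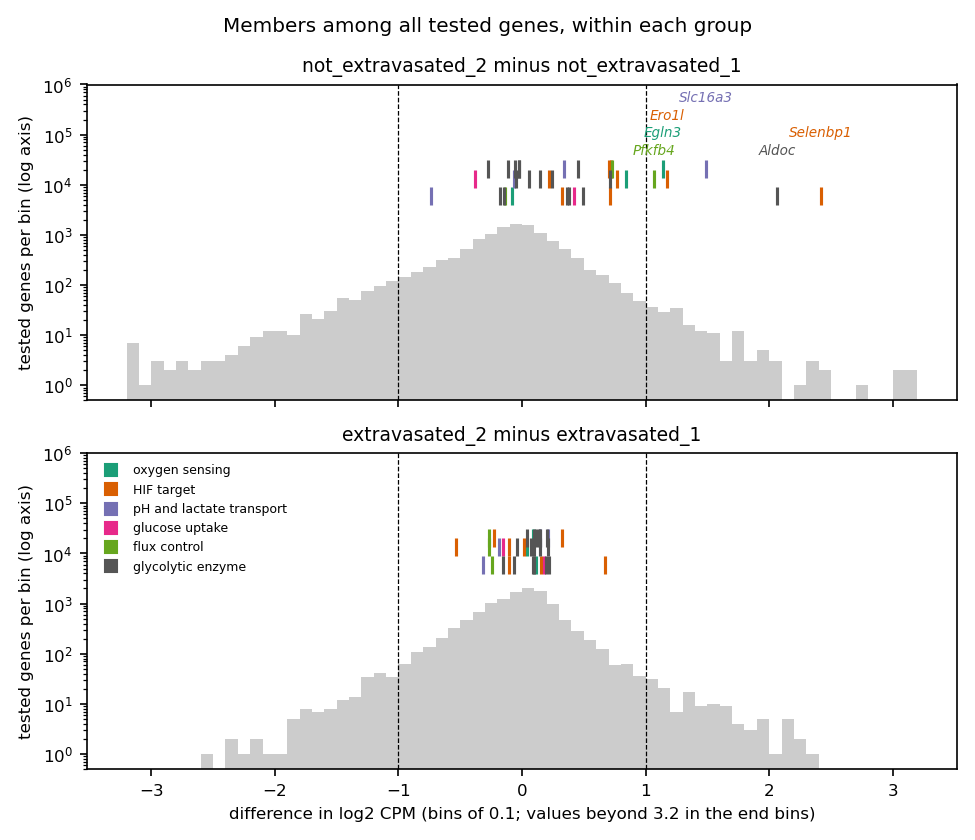
Differences in log2 CPM between the 2 libraries of each group, for all 12320 tested genes (grey bars, log axis) and for the 37 members (coloured ticks by role, stacked in height only to be seen apart). In the upper panel the 6 named members lie above the dashed line at a difference of 1, up to 2.42 for Selenbp1; in the lower panel every member lies between the dashed lines.

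Promoter windows are printed for 7 members on which the results turn. Hif1a, Pdk1, Gapdh and Aldoa had the smallest adjusted p among called members whose window held the core of a hypoxia response element, and Selenbp1, Aldoc and Slc16a3, the tested members farthest apart between the controls, were added after their values were seen. Each window runs from 250 bases before to 50 after a RefSeq transcript start on GRCm38, 5′ to 3′ in the direction of the gene. Where a gene had several windows, the one with the most matches is shown, ties going to the lowest coordinate. Capitals mark ACGTG or GCGTG on either strand, read as CACGT or CACGC where the match lies on the other strand; the palindrome CACGTG counts as 2 overlapping matches.
Hif1a (chr12:73907617-73907916, plus strand): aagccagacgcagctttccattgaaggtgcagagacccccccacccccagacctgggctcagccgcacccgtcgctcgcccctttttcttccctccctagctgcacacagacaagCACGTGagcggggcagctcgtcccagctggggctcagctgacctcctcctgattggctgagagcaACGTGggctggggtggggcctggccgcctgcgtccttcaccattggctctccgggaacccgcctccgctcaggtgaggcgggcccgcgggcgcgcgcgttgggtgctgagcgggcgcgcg
Pdk1 (chr2:71872974-71873273, plus strand): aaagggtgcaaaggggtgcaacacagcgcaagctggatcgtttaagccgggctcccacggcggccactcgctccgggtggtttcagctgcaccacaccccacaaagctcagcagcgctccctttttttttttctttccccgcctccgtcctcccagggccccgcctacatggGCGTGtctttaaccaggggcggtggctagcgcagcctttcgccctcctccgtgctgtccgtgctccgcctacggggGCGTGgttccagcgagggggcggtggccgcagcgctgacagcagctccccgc
Gapdh (chr6:125165724-125166023, minus strand): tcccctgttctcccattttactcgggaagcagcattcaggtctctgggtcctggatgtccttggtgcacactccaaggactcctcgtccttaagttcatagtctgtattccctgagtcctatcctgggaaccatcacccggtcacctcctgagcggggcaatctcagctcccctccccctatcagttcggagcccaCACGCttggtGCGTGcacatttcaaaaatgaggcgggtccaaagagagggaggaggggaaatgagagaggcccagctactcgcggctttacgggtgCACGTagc
Aldoa (chr7:126799129-126799428, minus strand): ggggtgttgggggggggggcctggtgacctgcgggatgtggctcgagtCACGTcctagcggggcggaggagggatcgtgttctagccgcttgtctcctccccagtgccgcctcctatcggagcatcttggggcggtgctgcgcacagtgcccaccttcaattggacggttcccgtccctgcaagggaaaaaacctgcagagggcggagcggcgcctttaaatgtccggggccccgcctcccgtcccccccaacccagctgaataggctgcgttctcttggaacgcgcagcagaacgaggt
Selenbp1 (chr3:94932833-94933132, plus strand): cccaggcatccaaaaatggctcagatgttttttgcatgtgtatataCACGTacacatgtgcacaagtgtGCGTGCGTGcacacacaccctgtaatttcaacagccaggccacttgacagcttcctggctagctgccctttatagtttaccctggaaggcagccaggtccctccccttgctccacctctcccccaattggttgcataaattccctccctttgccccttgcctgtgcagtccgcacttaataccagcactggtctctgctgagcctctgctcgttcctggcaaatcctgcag
Aldoc (chr11:78322823-78323122, plus strand): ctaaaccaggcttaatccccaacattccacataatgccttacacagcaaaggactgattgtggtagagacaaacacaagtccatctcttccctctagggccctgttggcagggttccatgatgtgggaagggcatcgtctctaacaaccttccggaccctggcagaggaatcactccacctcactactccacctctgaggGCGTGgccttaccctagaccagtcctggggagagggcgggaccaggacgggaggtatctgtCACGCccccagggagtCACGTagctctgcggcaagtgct
Slc16a3 (chr11:120948817-120949116, plus strand): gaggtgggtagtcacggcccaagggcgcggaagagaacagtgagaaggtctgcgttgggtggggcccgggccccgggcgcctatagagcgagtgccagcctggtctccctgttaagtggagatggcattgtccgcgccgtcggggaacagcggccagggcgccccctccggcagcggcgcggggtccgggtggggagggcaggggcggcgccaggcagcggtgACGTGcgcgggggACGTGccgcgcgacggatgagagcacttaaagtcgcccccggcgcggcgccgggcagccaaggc
The windows of Hif1a, Gapdh, Selenbp1 and Aldoc held 3 matches each, those of Pdk1 and Slc16a3 held 2, and that of Aldoa held 1. Windows were found for 37 of the 39 members, and 33 of those 37 had a match in at least 1 window. Counted by window, 45 of the members' 54 windows held a match. Of all 32851 windows of this length 43.8% held a match, and 46.7% of the genes with windows had one in any of theirs. The members' windows had a median GC content of 63.8%, against 52.7% over all windows, and among all windows with 56.4% to 67.3% GC, the middle range of the members, 62.5% held a match. A match describes letters only.

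Hif1a (ENSMUSG00000021109.13, chr12:73901375-73947530) encodes the oxygen-labile subunit of HIF. Its level was 329 and 311 CPM in controls 1 and 2, and 102 and 110 CPM in extravasated 1 and 2. Both extravasated libraries thus lay far under both controls, which differed little from each other. The log2 fold change was -1.60 ± 0.12 (SE), a level 3.03-fold lower after extravasation, with an adjusted p of 0.000719. Its transcript is the poorest in GC of the tested members, at 41.3%, and with the offset the change was -0.39 ± 0.13 with an adjusted p of 0.0858, which ended the call.

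The prolyl hydroxylases Egln1 and Egln3, which mark HIF for destruction, were highest in control 2. Egln1, the main oxygen sensor of this kind, was at 85.9 and 154 CPM in the controls and at 73.1 and 75 CPM in the extravasated libraries. Control 1 stood close above the extravasated pair and control 2 well above it. Its log2 fold change was -0.70 ± 0.27 with an adjusted p of 0.0826, and it was -1.02 ± 0.26 with an adjusted p of 0.0498 under the offset. It was also called lower with DESeq2 (adjusted p of 0.0199) and with a term for the kind of suffix in the titles, which the groups share (0.0139). Egln3, itself a HIF target, was at 2.69 and 6.08 CPM in the controls and 2.42 and 2.58 CPM in the extravasated libraries. Only control 2 stood apart for Egln3, whose log2 fold change of -0.83 ± 0.43 had an adjusted p of 0.151. Ratios of control 2 to control 1 were 1.79 for Egln1 (95% exact counting interval 1.67 to 1.93) and 2.26 for Egln3 (1.5 to 3.49). These intervals cover counting error only.

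Ero1l (ENSMUSG00000021831.9, chr14:45283087-45318771), the oxidase that drives disulphide bond formation in the endoplasmic reticulum, had the largest fall among called members. Its level was 102 and 231 CPM in controls 1 and 2, and 38.2 and 35.5 CPM in the extravasated libraries. The groups did not overlap, and control 2 was 2.26 times control 1 (2.12 to 2.41). Between groups the log2 fold change was -2.18 ± 0.39 with an adjusted p of 0.00959. With the offset it was -1.08 ± 0.49 and was not called, with an adjusted p of 0.202, while the gap between the controls widened from 1.17 to 1.5 on the log2 scale.

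Selenbp1 (ENSMUSG00000068874.13, chr3:94933056-94944758), a selenium-binding methanethiol oxidase, showed the widest gap between the controls among tested members. Its level was 4.77 CPM in control 1 and 26.1 CPM in control 2, and 4.24 and 6.85 CPM in the extravasated libraries. Control 1 fell inside the range of the extravasated pair, so the groups overlapped. The gap of 2.42 on the log2 scale ranked 7th among the 12320 genes ordered by the excess of control 2, and the ratio was 5.47 (4.13 to 7.37). The log2 fold change between groups, -1.48 ± 0.77, was not called.

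Ddit4 (chr10:59949669-59951834), an inhibitor of the growth kinase complex mTORC1, was at 9.55 and 15.6 CPM in the controls and 4.39 and 5.53 CPM in the extravasated libraries. Every extravasated value lay under every control value. That gave a log2 fold change of -1.34 ± 0.30 with an adjusted p of 0.0101, and the call held with the offset, where it was -1.87 ± 0.28 with an adjusted p of 0.0100. Fam162a, a hypoxia-induced mitochondrial protein linked to cell death, was at 62.1 and 77.6 CPM in the controls and 35.6 and 39.5 CPM in the extravasated libraries. Ak4, an adenylate kinase of mitochondria, was at 12.8 and 21.9 CPM in the controls and 6.81 and 6.90 CPM in the extravasated pair. For both genes all control values exceeded all extravasated ones. Their log2 fold changes were -0.89 ± 0.16 and -1.34 ± 0.29, with adjusted p of 0.00458 and 0.00839. With the offset they stood at -0.63 ± 0.17 and -0.998 ± 0.28 and were not called (adjusted p of 0.0533 and 0.0564), and with the longest transcript in place of the principal one both were called (0.0422 and 0.0343).

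Hilpda, which coats lipid droplets and slows lipolysis, was the 1 member called higher that is not a glycolytic enzyme. Its level was 4.86 and 5.67 CPM in the controls and 11.6 and 7.95 CPM in the extravasated libraries. The extravasated libraries lay above both controls, the first of them farther. The rise was 0.88 ± 0.28 on the log2 scale with an adjusted p of 0.0351, and 0.60 ± 0.26 with an adjusted p of 0.163 under the offset. With library totals in place of TMM factors its adjusted p was 0.0553. Ndrg1, a stress-induced cytoplasmic protein, was at 53.9 and 88.5 CPM in the controls and 65.4 and 60.8 CPM in the extravasated libraries. Higd1a, a small protein of the inner mitochondrial membrane, was at 47.6 and 78.5 CPM in the controls and 49.7 and 42.5 CPM in the extravasated libraries. In both, control 2 was the highest library, control 1 was near the extravasated pair and the groups overlapped. Their log2 fold changes were -0.18 ± 0.23 and -0.46 ± 0.24, and neither was called. With the title suffix term Higd1a was at -0.41 and called lower (adjusted p of 0.0414).

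The 2 members that did not pass the filter showed the same library on top. Adm, the precursor of the vasodilator peptide adrenomedullin, had 1 and 28 counts in controls 1 and 2 and 1 count in each extravasated library. Ankrd37, an ankyrin repeat protein, had 3 and 38 counts in the controls and 2 and 4 in the extravasated libraries. Control 2 was thus the only library with more than a handful of reads for either gene. Its ratio to control 1, scaled for library size, was 18.7 for Adm (95% exact counting interval 3.09 to 763) and 8.45 for Ankrd37 (2.68 to 42.8). Ankrd37 overlaps Ufsp2 on the opposite strand, which had 2184 counts in control 2 and 1059 in control 1, and the strand setting of the counting was not given in the sources used here.

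Lactate leaves cells through monocarboxylate transporters, and surface carbonic anhydrases buffer the acid. Slc16a3 (chr11:120948480-120960868), the transporter typical of glycolytic cells, was at 27.9 and 78.3 CPM in controls 1 and 2 and at 19.2 and 22.1 CPM in the extravasated libraries. All extravasated values lay under the controls, with control 2 alone far above. Between groups the log2 fold change was -1.37 ± 0.48 with an adjusted p of 0.0672, and the ratio between the controls was 2.81 (2.49 to 3.18), the 51st highest among tested genes. With library totals in place of TMM factors Slc16a3 was at -1.45 and called lower (adjusted p of 0.0377). Slc16a1, the more widely expressed transporter, was at 68.0 and 65.2 CPM in the controls and 59.3 and 52.1 CPM in the extravasated libraries. It was slightly lower in the extravasated pair, with a log2 fold change of -0.26 ± 0.14 and an adjusted p of 0.160. This GC-poor transcript (42.9%) turned direction with the offset, to 0.80 ± 0.12 with an adjusted p of 0.0109. Per kilobase of exon, Slc16a3 stood at 34.1 for every 100 of Slc16a1 in control 1, at 100 in control 2, and at 26.9 and 35.3 in the extravasated libraries. Here and below, exon length is that of all annotated exons of a gene merged. The size of a ratio between genes depends on that length, while its relative change between libraries does not.

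Car9, a carbonic anhydrase often used as a hypoxia marker, was low throughout, at 4.86 and 6.19 CPM in the controls and 6.21 and 6.90 CPM in the extravasated libraries. Control 1 was the lowest library and the other values lay close together, and the log2 fold change of 0.24 ± 0.27 was not called. Car12, a related enzyme, was at 2.69 and 1.56 CPM in the controls and 1.21 and 0.948 CPM in the extravasated libraries. Here control 1 was the highest library and the change of -0.96 ± 0.46 had an adjusted p of 0.122.

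Glucose enters through facilitative transporters. Slc2a1, the main one of most tumour lines, was at 49.6 and 66.4 CPM in the controls and 52.5 and 59.5 CPM in the extravasated libraries. The groups overlapped, and the log2 fold change of -0.05 ± 0.17 was not called. Slc2a3, a transporter of high affinity, was at 22.1 and 17 CPM in the controls and 29.1 and 26.2 CPM in the extravasated libraries. It was higher in both extravasated libraries, with a log2 fold change of 0.50 ± 0.19 and an adjusted p of 0.0641, and with the offset 0.71 ± 0.17 with an adjusted p of 0.0360. With the title suffix term its adjusted p was 0.0369.

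Pdk1 (ENSMUSG00000006494.11, chr2:71873224-71903858), the kinase that shuts pyruvate dehydrogenase and so keeps pyruvate out of mitochondrial oxidation, was at 58.5 and 96.8 CPM in the controls and 26.5 and 22.0 CPM in the extravasated libraries. Both extravasated libraries were well under both controls, and control 2 was again the highest. The log2 fold change was -1.68 ± 0.26, with an adjusted p of 0.00388. With the offset it was -0.99 ± 0.26 with an adjusted p of 0.0516, just past the threshold, and with the longest transcript the adjusted p was 0.0431. Pfkfb3 and Pfkfb4 set the level of the sugar bisphosphate that activates phosphofructokinase. Pfkfb3 was at 45.4 and 41.1 CPM in the controls and 44.0 and 37.2 CPM in the extravasated libraries, with overlapping groups. Pfkfb4 was at 2.69 and 5.79 CPM in the controls and 3.26 and 2.69 CPM in the extravasated libraries, so control 2 alone stood out. Their log2 fold changes, -0.09 ± 0.16 and -0.54 ± 0.42, were not called.

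The 17 glycolytic enzymes together took 19030 and 19740 CPM in controls 1 and 2 and 25920 and 28450 CPM in the extravasated libraries. Most of that sum came from a few abundant transcripts. Per kilobase of exon the mean level over the libraries was highest for Gapdh at 1598 CPM per kb. Aldoa at 907, Pkm at 899, Tpi1 at 581, Eno1 at 501 and Ldha at 369 followed. The order after Gapdh depends on the length taken. Merged exons measure 5379 bases for Eno1 and 2753 for Tpi1, against 2027 and 1607 in their principal transcripts. Among the tested members the lowest levels were those of Car12 at 0.211, Pfkfb4 at 0.739 and Egln3 at 1.29 CPM per kb.

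Gapdh (ENSMUSG00000057666.18, chr6:125161715-125166467), which makes the first NADH of the pathway, was at 5027 and 4953 CPM in the controls and 7644 and 8798 CPM in the extravasated libraries. The controls agreed closely and both extravasated libraries were higher. Between groups the log2 fold change was 0.72 ± 0.12, a 1.65-fold rise, with an adjusted p of 0.00308. Aldoa, the main aldolase, was at 2112 and 2032 CPM in the controls and 3043 and 3374 CPM in the extravasated libraries, again without overlap. Its log2 fold change was 0.63 ± 0.11 with an adjusted p of 0.00432. Pkm, pyruvate kinase, was at 3521 and 3884 CPM in the controls and 5159 and 5428 CPM in the extravasated libraries, a log2 fold change of 0.52 ± 0.11 with an adjusted p of 0.00865. In each of these 3 the step between groups was wider than the gap within either. With the offset their log2 fold changes were 0.19 ± 0.11, 0.10 ± 0.11 and 0.07 ± 0.11, and none was called.

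The other risen enzymes moved by less. Pgam1 (phosphoglycerate mutase), Tpi1 (triosephosphate isomerase), Eno1 (enolase) and Ldha (lactate dehydrogenase A) had log2 fold changes of 0.51 ± 0.13, 0.43 ± 0.13, 0.39 ± 0.11 and 0.33 ± 0.11. Their adjusted p-values were 0.0144, 0.0264, 0.0232 and 0.0455. Ldha, for example, was at 1128 and 1040 CPM in the controls and 1307 and 1416 CPM in the extravasated libraries. All 4 kept non-overlapping groups, and none was called with the offset, where Eno1 turned to -0.09 ± 0.11. Gpi1 (glucose phosphate isomerase), Pgk1 (phosphoglycerate kinase), Eno2, Hk1 (hexokinase) and Ldhb were not called, with log2 fold changes from 0.12 for Pgk1 to 0.38 for Eno2, and Gpi1 was called higher with the title suffix term (0.30, adjusted p of 0.0325). With library totals in place of TMM factors Tpi1 and Ldha lost their calls (adjusted p of 0.0651 and 0.0690). Counts of near-identical copies, which are numerous for Gapdh, Aldoa, Eno1 and Ldha, could have been split by the counting, so these levels are uncertain to that degree.

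Hexokinase and phosphofructokinase act at regulated steps of the pathway, and 1 form of each was called lower. Hk2, the inducible hexokinase of many tumours, was at 167 and 214 CPM in the controls and 143 and 128 CPM in the extravasated libraries. Pfkl, the liver-type phosphofructokinase, was at 339 and 465 CPM in the controls and 267 and 286 CPM in the extravasated libraries. In both genes control 2 was the highest library and the groups did not overlap. Log2 fold changes were -0.49 ± 0.15 for Hk2 and -0.54 ± 0.16 for Pfkl, with adjusted p of 0.0344 and 0.0305. Over control 1 alone both stood at -0.29 and were not called (adjusted p of 0.121 and 0.0958), against -0.66 and -0.75 over control 2 alone. With the offset Hk2 was at -0.44 ± 0.15 and not called, with an adjusted p of 0.0959, though with GC content alone in the offset it was at -0.62 and called (adjusted p of 0.0314). Pfkl kept its call with the offset, at -0.88 ± 0.16 with an adjusted p of 0.0154, and there also over control 1 alone, at -0.64 with an adjusted p of 0.00284.

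The other phosphofructokinases differed from Pfkl. Pfkm, the muscle type, was at 44.6 and 62.8 CPM in the controls and 62.2 and 71.2 CPM in the extravasated libraries, and Pfkp, the platelet type, was at 172 and 281 CPM in the controls and 220 and 214 CPM in the extravasated libraries. Both overlapped between groups and neither was called. Per kilobase of exon, Pfkm stood at 26.3 and 27.0 for every 100 of Pfkl in the controls and at 46.5 and 49.7 in the extravasated libraries, so this ratio separated the groups while agreeing within each. Pfkp stood at 25.2 and 30.1 per 100 of Pfkl in the controls and at 40.9 and 37.2 in the extravasated libraries, which also did not overlap. These ratios were not tested, and their size rests on merged exons, 13401 bases for Pfkp against 4145 in its principal transcript. Pfkm overlaps Senp1 and Pfkp overlaps Pitrm1 on the opposite strand, both with over 900 counts in every library.

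Aldoc (ENSMUSG00000017390.15, chr11:78322968-78327781), the aldolase best known from brain, had the widest gap between controls among the enzymes. Its level was 14.8 CPM in control 1, 62.1 CPM in control 2, and 10.4 and 12.1 CPM in the extravasated libraries. Control 1 lay just above the extravasated pair and control 2 was 4.21 times control 1 (3.58 to 4.98), the 14th highest excess among tested genes. The log2 fold change of -1.78 ± 0.65 was not called, with an adjusted p of 0.0759. With library totals in place of TMM factors it was -1.865 and called lower (adjusted p of 0.0423). Per kilobase of exon, Aldoc stood at 0.623 for every 100 of Aldoa in control 1, at 2.73 in control 2, and at 0.304 and 0.320 in the extravasated libraries. Hk2 stood at 86.7 and 135 per 100 of Hk1 in controls 1 and 2 and at 73.7 and 64.4 in the extravasated libraries. The merged exons of Hk1 measure 8532 bases against 3851 in its principal transcript, and those of Hk2 5969 against 5513. Whether Hk2 exceeded Hk1 in control 2 therefore depends on the length taken.

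Because control 2 stood apart, both extravasated libraries were set against each control alone. These fits share the extravasated libraries, and the lone control is assumed to vary as that pair does, so their p-values rest on the spread within 1 pair. Over control 2 alone 17 members were called lower, against 27.3% of tested genes, and 9 higher, against 21.5%, with a median log2 fold change of -0.24. Over control 1 alone 7 were called lower, against 28.1%, and 10 higher, against 19.4%, with a median of 0.14. Without the offset Hif1a was alike over either, with log2 fold changes of -1.56 over control 2 and -1.63 over control 1. Gapdh was alike in this, at 0.73 and 0.72. Ero1l stood at -2.65 and -1.47, Pdk1 at -2.0 and -1.27, and Ddit4 at -1.64 and -0.93, and each of these 3 was called over either control. Aldoc stood at -2.46 over control 2 and -0.38 over control 1, Slc16a3 at -1.92 and -0.42, Egln3 at -1.27 and -0.10, and Selenbp1 at -2.21 and 0.24. Without the offset none of these was called over control 1. Under the offset Aldoc stood at -2.59 and -0.54, Slc16a3 at -2.20 and -0.71, Egln3 at -1.37 and -0.21, and Selenbp1 at -2.63 and -0.21. Egln1, at -1.06 and -0.21 without the offset, stood at -1.36 and -0.54 under it. Under the offset Slc16a3 and Egln1 were called lower over control 1 too, while Aldoc, Egln3 and Selenbp1 were not. With the offset Hif1a stood at -0.53 over control 2 and -0.24 over control 1 (adjusted p of 0.00532 and 0.174), and Ero1l at -1.65 and -0.13 (1.14e-05 and 0.551), so that each was called over control 2 and not over control 1. Pdk1, at -1.34 and -0.52, and Ddit4, at -2.13 and -1.46, were called over either control with the offset too.

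**Figure D3:**
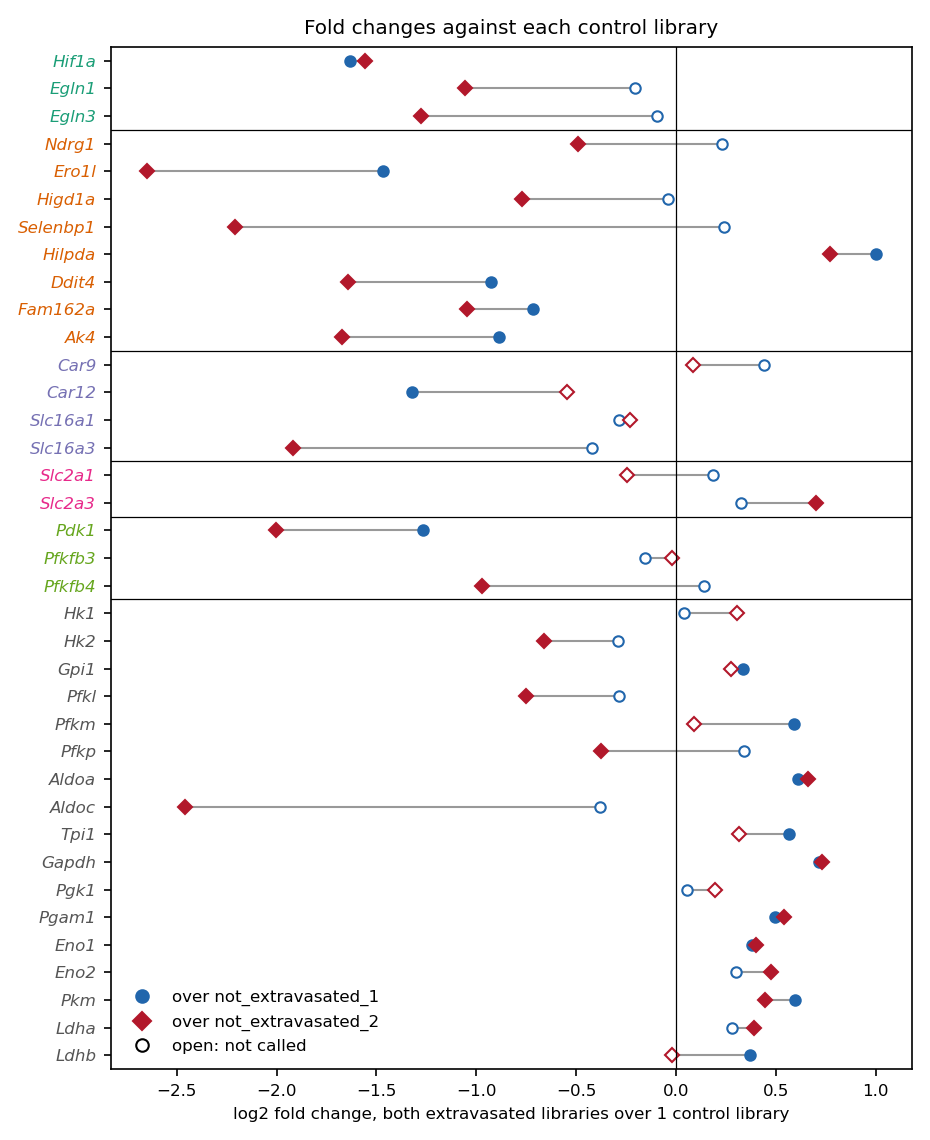
Log2 fold changes of the 37 tested members (rows) for both extravasated libraries over control 1 alone (not_extravasated_1, circles) and over control 2 alone (not_extravasated_2, diamonds); open symbols were not called. Symbols coincide for Hif1a and Gapdh and lie far apart for Selenbp1, from 0.24 to -2.21, and for Aldoc, from -0.38 to -2.46.

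Without extravasated 1, 2 members were called lower and 5 higher, against 15.1% and 12.7% of tested genes, and without extravasated 2, 2 and 1, against 10.5% and 4.29%. These fits carried no offset. Hif1a and Gapdh kept their calls in both, with log2 fold changes of -1.45 and -1.61 for Hif1a and 0.92 and 0.66 for Gapdh. Under the offset Hif1a stood at -0.36 and -0.42 and Gapdh at 0.25 and 0.16. The spread in these fits came from the controls alone. Of the 16 calls 9 ended without extravasated 1 and 13 without extravasated 2, and those of Ero1l (adjusted p of 0.0844 and 0.113) and Ddit4 (0.1 and 0.0734) ended in both.

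**Figure D4:**
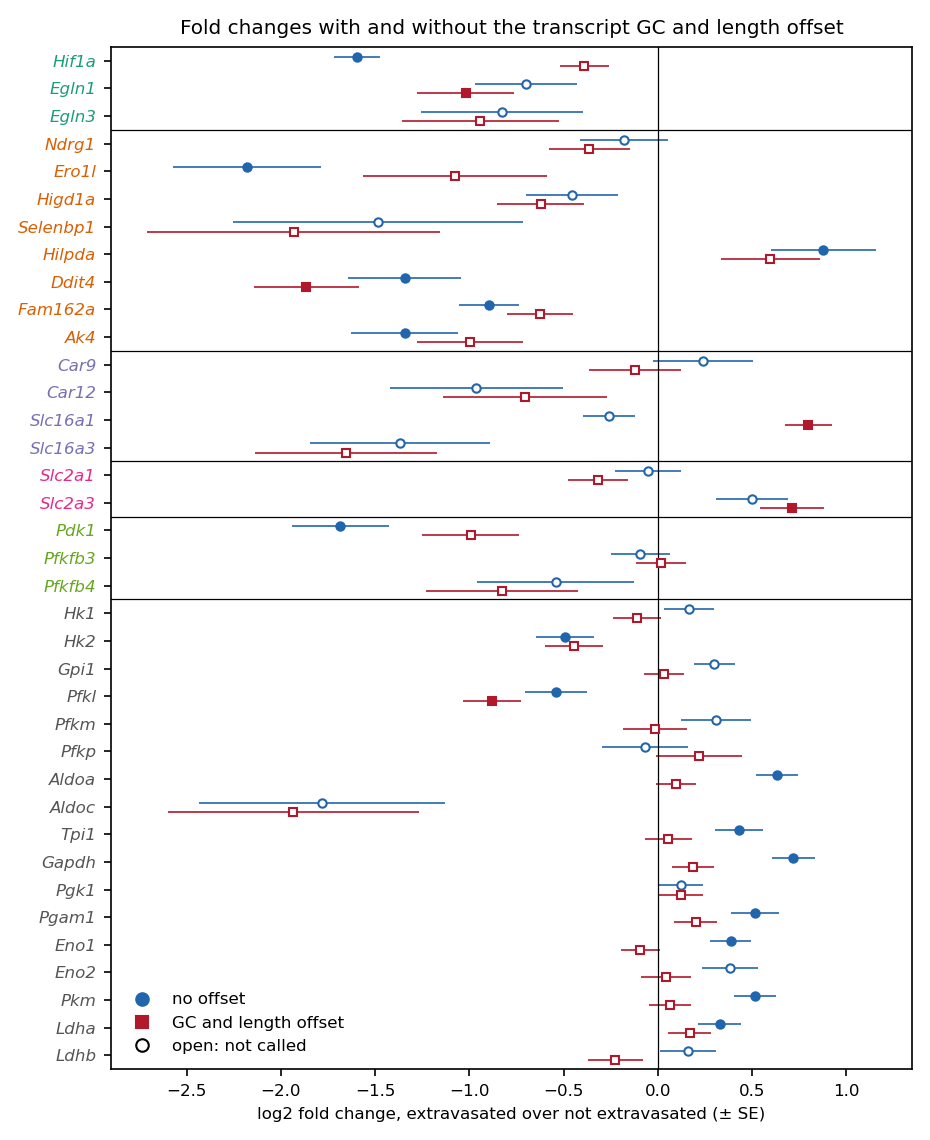
Log2 fold changes ± SE of the 37 tested members between groups, without (circles) and with (squares) the offset for transcript GC content and length; open symbols were not called. Hif1a moves from -1.60 to -0.39 and Slc16a1 from -0.26 to 0.80, the abundant enzymes move towards 0, and Ddit4 and Pfkl are called under both.

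Other genes of the HIF system were mixed. Of 11 tested, 3 were called higher and 3 lower (27.3% each), against 19.1% and 25.9% of all tested genes. With the offset 2 (18.2%) and 1 (9.09%) were called, against 7.88% and 5.72%. Epas1, the sister alpha subunit of Hif1a, was at 28.0 and 42.4 CPM in the controls and 16.4 and 12.8 CPM in the extravasated libraries, with a log2 fold change of -1.28 ± 0.24 and adjusted p of 0.00613, or 0.0184 with the offset. Hif1an, the asparagine hydroxylase that blocks HIF activity, was at 55.1 and 50.3 CPM in the controls and 71.8 and 72.9 CPM in the extravasated libraries, a change of 0.46 ± 0.13 that was called with and without the offset. Egln2 (log2 fold change 1.02 ± 0.15) and Elob (0.74 ± 0.13) were called higher and Eloc (-0.75 ± 0.14) and Cul2 (-1.19 ± 0.17) lower without the offset only. Eloc turned to 0.31 with it. Elob, Eloc and Cul2 are parts of the VHL ligase. Rbx1, of the same list and named after its values were seen, was called higher with the offset and not without it. Its change with the offset was 0.53 ± 0.12 (adjusted p of 0.0326). Arnt, the HIF partner, and Vhl were not called, at -0.36 ± 0.17 and -0.14 ± 0.20.

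Among 29 other tested HIF targets, 2 were called higher (6.90%, against 19.1% of all tested genes) and 11 lower (37.9%, against 25.9%), with a median log2 fold change of -0.53. With the offset 6 were called lower (20.7%, against 5.72%), with a median of -0.49. Plod2, a collagen lysyl hydroxylase, was at 178 and 186 CPM in the controls and 48.9 and 50.2 CPM in the extravasated libraries, with a log2 fold change of -1.88 ± 0.12, or -0.90 ± 0.13 with the offset, called under both. Kdm3a, a histone demethylase, was at 141 and 126 CPM in the controls and 53.4 and 52.6 CPM in the extravasated libraries and was called under both as well. Vegfa, the angiogenic growth factor, was at 57.5 and 110 CPM in the controls and 36.0 and 32.5 CPM in the extravasated libraries, with a change of -1.30 ± 0.32 (adjusted p of 0.0236, and 0.0264 with the offset). Wsb1 and Bnip3l, with log2 fold changes of -1.34 ± 0.16 and -1.65 ± 0.20, were called lower too, Wsb1 also with the offset. Control 2 exceeded control 1 more than 2-fold for 5 of the 29 (17.2%, against 1.44% of all tested genes), among them the mitophagy receptor Bnip3. Bnip3 was at 33.3 and 128 CPM in the controls and at 10.8 and 9.53 CPM in the extravasated libraries. Its log2 fold change of -3.0 ± 0.69 was called lower (adjusted p of 0.024). With the offset it was -2.13 ± 0.81 and not called (adjusted p of 0.161). Control 2 fell short of control 1 by as much for 3 (10.3%, against 4.5%), named after their values were seen: Angptl4, Cdkn1a and Tfrc. Stc1, a secreted glycoprotein noticed after the values were seen, had 52 counts in control 2, 3 in extravasated 2 and none in the other libraries.

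Of 17 other glycolytic and side-branch genes, 4 were called higher (23.5%, against 19.1% of all tested genes), namely Gpd1, Akr1a1, Galk1 and Eno3. Gpd1, which passes glycolytic carbon to glycerol phosphate, was the 1 that stayed called with the offset, at 0.62 ± 0.16, from 1.02 ± 0.17 without it. In the pentose phosphate pathway 3 of 10 were called higher (30%), Pgls and G6pdx among them, and 2 lower (20%, against 25.9%), Prps2 and Rpe. Their log2 fold changes were 0.92 ± 0.14 for Pgls, 0.49 ± 0.12 for G6pdx, -1.60 ± 0.23 for Prps2 and -1.02 ± 0.17 for Rpe. None of these calls held with the offset. Prps1, named here after its values were seen, was the 1 of the 10 called higher under it (10%, against 7.88%), at 0.68 ± 0.15. For the entry of pyruvate into mitochondria, 3 of 13 were called lower without the offset (23.1%), namely Dld, Pdk3 and Pdp2, at -1.49 ± 0.12, -0.78 ± 0.15 and -0.75 ± 0.24. With the offset these were no longer called, and Pdha1, Dlat and Pdhx, subunits of pyruvate dehydrogenase named here after their values were seen, were called higher (23.1%, against 7.88%) at 0.44 ± 0.11, 0.64 ± 0.12 and 0.54 ± 0.12.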

How the data were processed

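As deposited, the table held whole read counts for each gene, with no normalization. Per the submitters' processing notes, GRCm38 was the build and bcl2fastq 2.18.0.12 and STAR 2.5.3a were used; counter, annotation release, strand setting and filters are not given in the sources used here. Members were found by symbol. For Aldoa, whose symbol stood on 2 identifiers, the first in the deposited order was used, and counts of the other are not given here. Coordinates and exon lengths, which merge all annotated exons of a gene, came from GENCODE M21 (GRCm38) and promoter windows from RefSeq. Counts were filtered (minimum count 10, minimum total 15), scaled with TMM and tested two-sided with edgeR 4.0.16 (R 4.3.3, robust, no covariate), with Benjamini-Hochberg adjustment over all tested genes and a threshold of 0.05. SEs are the absolute log2 fold change over the square root of F. Log2 CPM used a prior count of 2. The offset was a smooth (mgcv 1.9.3, basis size 10) of each library's deviation on GC content and log2 length of the principal coding transcript. A chi-square per degree of freedom of 25.9 within the controls and 15.3 within the extravasated pair showed distinct libraries. The fit was also run on simulated counts, with the outcome not given here. Those counts held no GC trend and no gap between the controls, so the run does not bear on either. Every member is named, and from each other list up to 4 called genes with the smallest adjusted p plus a few set genes. The members, lists and tests were chosen with earlier results of these data known. Alternatives were RLE factors, library totals, DESeq2 1.42.0, other filters, a term for the kind of title suffix, GC alone, and each library left out; the offset with the longest transcript was added after seeing the data. Protein sequences were not used here.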

Additional observations from a re-analysis of the deposited data

How the results depend on the processing

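The genes called over the whole table numbered 5551, and 1676 with the GC and length offset, 2263 with GC alone and 1651 with the longest transcript. Members called higher numbered 8, then 2, 2 and 2 under these offsets and 5 with library totals. Members called lower numbered 8, then 3, 6 and 6, and library totals added Slc16a3 and Aldoc to the lower. Shares of all genes by direction are not given here for GC alone, the longest transcript and library totals. The members' median, -0.09, was -0.25 with the longest transcript. At 1.5-fold in place of 2-fold, 14 members were apart between the controls and 1 between the extravasated libraries. Of the 14, Car12 was higher in control 1 and the others in control 2. The share of all genes at 1.5-fold is not given here. With each library left out in turn, with and without the offset, 102 to 6251 genes were called, 0 to 18 members lower and 0 to 10 higher, and the median ran from -0.30 to 0.14. RLE factors, DESeq2, other filters and the title suffix term kept every count of calls within 1.5 times. The labels give no replicate numbers. The groups share a kind of title suffix, whose meaning is not given, and with it as a term, a fit that pairs libraries across groups, 6165 genes were called, with 10 members lower and 10 higher: Egln1 and Higd1a were added to the lower and Slc2a3 and Gpi1 to the higher, and no member lost its call.

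Some directions turned. With the GC and length offset, GC alone and the longest transcript, in that order, the log2 fold change was -0.12, -0.048 and -0.15 for Car9, 0.80, 0.77 and 0.77 for Slc16a1, -0.11, -0.19 and -0.13 for Hk1, -0.017, -0.021 and -0.042 for Pfkm, 0.22, 0.18 and 0.17 for Pfkp, -0.092, -0.037 and -0.12 for Eno1, -0.23, -0.061 and -0.25 for Ldhb, 0.31, 0.49 and 0.28 for Eloc, and 0.11, 0.25 and 0.089 for Rpe. Pfkfb3 turned to 0.017 and 0.033 with the first and the last, Cul2 to 0.034 with GC alone and Arnt to 0.015 with the longest transcript. Over the fits without 1 library, with and without the offset, the range was -0.66 to 0.23 for Ndrg1, -2.63 to 0.24 for Selenbp1, -0.25 to 0.44 for Car9, -0.28 to 0.89 for Slc16a1, -0.50 to 0.18 for Slc2a1, -0.16 to 0.10 for Pfkfb3, -1.24 to 0.14 for Pfkfb4, -0.24 to 0.31 for Hk1, -0.22 to 0.59 for Pfkm, -0.38 to 0.64 for Pfkp, -0.032 to 0.60 for Tpi1, -0.11 to 0.55 for Eno1, -0.049 to 0.53 for Eno2, -0.37 to 0.37 for Ldhb, -0.36 to 0.18 for Vhl, -0.83 to 0.51 for Eloc, -1.25 to 0.12 for Cul2, -0.00047 to 0.83 for Galk1, -1.16 to 0.21 for Rpe and -0.98 to 0.034 for Pdp2. The cause of these turns was not tested. Adm and Ankrd37 did not pass the filter on low counts described above.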
